A study of Homo sapiens with 6 samples.

Results

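The cytokine IL-24 and 5 receptor chains of the IL-10 cytokine family were followed in TPC-1-Len cells, a human papillary thyroid carcinoma line made resistant to the kinase inhibitor lenvatinib. The 6 genes, IL24, IL20RA, IL20RB, IL22RA1, IL10RA and IL10RB, were chosen by name from the 22681 genes of the deposited count table, and they were selected on the fold changes of the comparison described here. Their values in that comparison are therefore a description, and no test is given for them. All 6 had a row in the table, and 5 of the 6 passed the filter on low counts that left 14356 genes for testing. IL20RA did not pass it.

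Both groups were cultures of the same resistant line, kept in 10 µM lenvatinib and transfected with a short hairpin RNA, either a non-targeting one (shNC, 3 libraries) or one against KRT15 (shKRT15, 3 libraries). KRT15 encodes a type I keratin of basal epithelial cells, and the study asked which genes it regulates in resistant cells. The line is a single tumour line, the labels name 1 hairpin against KRT15, and there were no drug-free or drug-sensitive cultures among the samples. The labels speak of biological replicates without saying whether each was a separate transfection, so the p-values given for other genes measure only the spread between these cultures.

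IL-24 is a secreted cytokine of the IL-20 subfamily, made by epithelial cells and by activated immune cells, and studied in tumours as a growth-suppressing protein under the name MDA-7. It binds a receptor of IL20RA with IL20RB or of IL22RA1 with IL20RB, so IL20RB is needed for both receptors and the partner chain decides which one is built. IL10RB is the shared second chain of other receptors: with IL10RA it binds IL-10, with IL22RA1 it binds IL-22, with IL20RA it binds IL-26, and with IFNLR1 it binds the lambda interferons. These receptors act through the kinases JAK1 and TYK2 and STAT factors, chiefly STAT3, and SOCS proteins damp the signal. IL10RA is known mainly from leukocytes, while IL20RA, IL20RB and IL22RA1 are known from epithelia.

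The sequences upstream of the start sites of IL24 and of both chains of the IL22RA1/IL20RB receptor are shown because these 3 genes had the largest differences between the groups, one downward and the others upward. They are RefSeq sequences of GRCh38.p14, 250 bases ending just before the first transcribed base, written 5′ to 3′ on the strand of the gene. Capitals mark letters that matched a searched motif.
IL24: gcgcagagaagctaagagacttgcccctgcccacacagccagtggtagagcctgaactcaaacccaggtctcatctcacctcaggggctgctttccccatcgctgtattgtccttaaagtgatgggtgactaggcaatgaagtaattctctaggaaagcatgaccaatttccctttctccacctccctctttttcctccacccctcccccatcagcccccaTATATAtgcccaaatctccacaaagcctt
IL20RB: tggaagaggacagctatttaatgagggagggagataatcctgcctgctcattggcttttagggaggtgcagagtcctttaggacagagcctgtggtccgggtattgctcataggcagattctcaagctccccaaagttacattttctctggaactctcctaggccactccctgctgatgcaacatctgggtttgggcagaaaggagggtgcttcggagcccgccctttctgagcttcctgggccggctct
IL22RA1: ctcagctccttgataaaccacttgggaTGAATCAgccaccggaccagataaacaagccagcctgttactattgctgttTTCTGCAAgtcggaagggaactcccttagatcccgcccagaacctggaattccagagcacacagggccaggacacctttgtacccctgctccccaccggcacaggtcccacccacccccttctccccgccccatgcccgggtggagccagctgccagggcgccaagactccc
The IL24 sequence is chr1:206897193-206897442 on the plus strand, that of IL20RB is chr3:136957733-136957982 on the plus strand, and that of IL22RA1 is chr1:24143141-24143390 on the minus strand.

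The AP-1, kappa B, C/EBP, STAT and TATA motifs were searched on both strands in windows reaching from 250 bases before to 50 bases after a start. They were AP-1 as TGANTCA, held by 7.71% of the 35116 RefSeq windows, the kappa B core as GGNNTTTCC, held by 6.26%, C/EBP as TTGCNNAA, held by 10.5%, STAT as TTCNNNGAA, held by 7.66%, and TATA as TATAAA, held by 11.5%. The IL24 window held none of the 5 in these letters. The capitals in the IL24 sequence are a TATATA run, from 29 to 24 bases before the first transcribed base, which was searched after the sequence had been seen and which 3.99% of windows hold. The IL22RA1 window held an AP-1 match, TGAATCA, and a C/EBP match on the reverse strand, TTCTGCAA, in capitals above. The IL20RB window held no match, and the IL10RA window held an AP-1 match, TGAGTCA, and a C/EBP match, TTGCCCAA. In the window of IL10RB a STAT match, TTCCCGGAA, lay just after the start, and 1 of the 2 windows of IL20RA held TATAAA. A match is a run of letters and not a measured binding site, and the motifs overlap in no member window.

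The 6 libraries held 36286059 to 41343780 counted reads. KRT15, the targeted gene, was at 28.7, 31.9 and 36.2 CPM (the read count relative to the TMM-scaled size of its library) in shNC and at 25.01, 24.31 and 24.85 CPM in shKRT15. It fell by 23.4% (log2 fold change -0.38 ± 0.10 SE, adjusted p = 0.00465 by edgeR's quasi-likelihood test), so the 2 groups differ by a partial reduction of its RNA. The shKRT15 libraries were deeper than the shNC libraries, the 50 most abundant genes took 16.1 to 18.2% of their reads against 19.1 to 19.4%, and mitochondrially encoded genes took 4.86 to 6.54% against 4.99 to 5.24%. The part of these differences in the results was not tested. Of the 8 markers fixed for the labelled thyroid tissue, 6 had a row and 4 were tested, and none was called. PAX8 was abundant at 375.3 CPM in shNC and 410.4 CPM in shKRT15. In the same order, FOXE1 was at 14.6 and 15.3 CPM, HHEX at 8.64 and 7.85 CPM and TG at 1.58 and 0.808 CPM. TSHR and NKX2-1 had 1 read each over all libraries. Of the 8 epithelial markers, 5 were tested, and the summed level of all 8 was 277.8 to 303.3 CPM in shNC and 417.7 to 439.8 CPM in shKRT15: KRT18 (0.89 ± 0.07 SE) and ELF3 (0.39 ± 0.07 SE) rose, CLDN4 (-4.49 ± 0.42 SE) fell, and KRT7 and KRT8 were not called. CLDN4 had 101, 90 and 88 reads in shNC and only 4, 4 and 6 in shKRT15. The other epithelial markers, EPCAM, CDH1 and KRT19, had at most 6 reads in a group. Whether these markers have a part in the differences of IL20RB and IL22RA1, which are known from epithelia, was not tested.

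IL24 was the most abundant of the 6 genes in shNC and the one that differed most between the groups. Its level was 720.0, 742.5 and 812.9 CPM in the 3 shNC libraries and 114.1, 117.3 and 120.8 CPM in the 3 shKRT15 libraries. Every shKRT15 library lay far below every shNC library, and the spread within each group was small beside the gap. The means were 758.5 ± 48.5 CPM in shNC and 117.4 ± 3.31 CPM in shKRT15 (SD, n = 3 each), a level 6.46-fold lower with the KRT15 hairpin, with a log2 fold change of -2.69 ± 0.07 (SE). In reads, 81337 of the shNC reads and 14594 of the shKRT15 reads were counted for IL24, which is 0.0742% and 0.012% of each group's reads, so depth limited neither value. Among the tested genes, 154 had a lower log2 fold change than IL24, and 1.35% had a larger absolute one. IL24 still had 4673 to 5038 reads in each shKRT15 library, so its RNA was reduced and not lost. In RNA from whole cultures, fewer IL24-expressing cells and less IL24 RNA per cell cannot be told apart, and this holds for each gene below. The gene lies at chr1:206897443-206904139 (GRCh38, GENCODE release 29, plus strand).

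**Figure D1:**
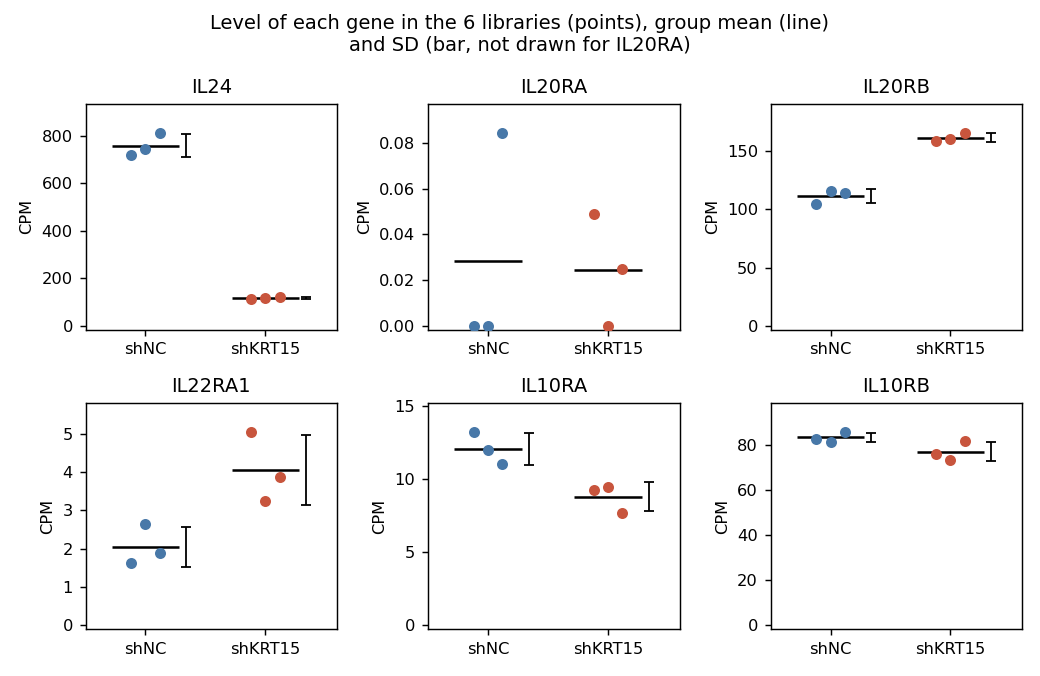
Level of each of the 6 genes in CPM on a linear axis, 1 panel per gene with its own scale, with points for the 6 libraries, a line for the group mean and a bar for the SD over 3 libraries (not drawn for IL20RA). The IL24 points drop from above 719 to below 121 CPM, IL20RB and IL22RA1 are higher in all 3 shKRT15 libraries, IL10RA is lower in all 3, and the IL10RB points of the groups overlap.

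IL20RB, the chain that both IL-24 receptors share, was higher with the KRT15 hairpin while its ligand was lower. Its level was 104.3, 115.9 and 114.1 CPM in shNC and 159.0, 160.5 and 166.1 CPM in shKRT15. The groups did not overlap, and the lowest shKRT15 library stood well above the highest shNC library. The mean went from 111.4 ± 6.22 CPM to 161.9 ± 3.75 CPM (SD, n = 3 each), which was 45.3% higher, a log2 fold change of 0.54 ± 0.07 (SE). The value rests on 3778 to 6891 reads per library. IL20RB spans chr3:136946230-137011085 on the plus strand in GENCODE release 29, where the start of the gene model shares exon sequence with NCK1, an adaptor protein gene on the same strand, and part of it lies opposite the antisense gene IL20RB-AS1. The RefSeq sequence printed above, chr3:136957733-136957982, lies inside this span and beyond the end of NCK1 at 136949823. The exon sequence shared with NCK1 therefore belongs to the GENCODE model and lies before the RefSeq start. The source of a read in shared sequence is uncertain, since neither the counting rule nor the strand setting is given in the sources used here. NCK1 fell, from 167.3 to 98.1 CPM (log2 fold change -0.77 ± 0.09 SE, adjusted p = 1.99e-06 by edgeR), which is the opposite direction to IL20RB. IL20RB-AS1 held 12 to 32 reads per library, few beside those of IL20RB.

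IL22RA1, one of the possible partners of IL20RB and also the ligand-binding chain of the IL-22 receptor, was the scarcer chain by far. Its level was 1.63, 2.64 and 1.89 CPM in shNC and 5.06, 3.24 and 3.88 CPM in shKRT15. All 3 shKRT15 libraries were above all 3 shNC libraries, but the second shNC library and the second shKRT15 library came close to each other. The mean went from 2.05 ± 0.524 CPM to 4.06 ± 0.922 CPM (SD, n = 3 each), a level 1.98-fold as high, with a log2 fold change of 0.98 ± 0.25 (SE). The counts behind it were 59, 94 and 67 reads in shNC and 207, 139 and 157 reads in shKRT15, and the coefficient of variation was 25.5% and 22.7%, so the size of this difference is the least precise of those that could be fitted. Without any 1 library the log2 fold change ranged from 0.802 to 1.203. IL22RA1 lies at chr1:24119771-24143121 on the minus strand.

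IL20RA, the alternative partner of IL20RB, was close to undetected. It had 0, 0 and 3 reads in shNC and 2, 0 and 1 reads in shKRT15. The groups overlap, with reads in 1 shNC library and in 2 shKRT15 libraries. Each group's sum of 3 reads has an exact Poisson 95% interval of 0.619 to 8.77 reads, which covers counting error only, and a difference was not detectable at this depth. Both groups are at the floor of 3 reads, so no fold is given. In these cells the RNA of the IL20RA/IL20RB receptor was therefore measured for 1 chain only, whereas both chains of the IL22RA1/IL20RB receptor were above the floor in every library. IL20RA lies at chr6:136999971-137045180 on the minus strand.

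IL10RA, the chain that binds IL-10, was lower with the KRT15 hairpin. Its level was 13.226, 11.985 and 11.033 CPM in shNC and 9.23, 9.48 and 7.69 CPM in shKRT15. The groups did not overlap, although the gap between the lowest shNC and the highest shKRT15 library was smaller than the range within either group. The mean went from 12.1 ± 1.10 CPM to 8.80 ± 0.969 CPM (SD, n = 3 each), which was 27.1% lower, a log2 fold change of -0.46 ± 0.13 (SE), from 311 to 479 reads per library. IL10RA lies at chr11:117986348-118003037 on the plus strand. Because the gene is known from leukocytes, their markers were read beside it: 13 of 18 had a row, 6 were tested, 1 rose and 3 fell. For comparison, 22.1% of all tested genes rose and 23.0% fell. The summed level of the markers was 211.3 to 211.8 CPM in shNC and 161.5 to 191.6 CPM in shKRT15. PTPRC, which encodes the pan-leukocyte protein CD45, had 21, 5 and 17 reads in shNC and 0 in each shKRT15 library, and CD3D, CD4, MS4A1 and NKG7 were not analysed here. Macrophage-associated CSF1R (log2 fold change -2.04 ± 0.27 SE), CD68 (-0.56 ± 0.09 SE) and LYZ (-3.40 ± 0.82 SE) fell. LYZ had only 15, 24 and 19 reads in shNC and 1, 0 and 5 in shKRT15. LAPTM5 (-0.08 ± 0.07 SE), the most abundant of the markers at 115.8 CPM in shNC and 109.6 CPM in shKRT15, and ITGAM (0.26 ± 0.56 SE) were not called. CD14 had 2 to 11 reads per library and was not tested. The rise of CORO1A passed the test with all libraries (adjusted p = 0.0235 by edgeR) and missed it in 3 of 16 alternatives, over which the adjusted p ran from 0.0046 to 0.146. Whether these markers have a part in the IL10RA difference was not tested.

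IL10RB, the shared second chain, was the member with the smallest difference. Its level was 82.6, 81.3 and 85.6 CPM in shNC and 75.9, 73.2 and 81.7 CPM in shKRT15. The groups overlap, since the third shKRT15 library lay above the second shNC library. The mean went from 83.2 ± 2.19 CPM to 76.9 ± 4.38 CPM (SD, n = 3 each), a log2 fold change of -0.11 ± 0.08 (SE), which became 0.10 once a trend with GC content and gene length was removed from each library, so no direction is given for it. IL10RB lies at chr21:33266358-33310187 on the plus strand, and a read-through transcript that joins it to its neighbour shares its exons and was not analysed here.

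Of the 5 tested members, 2 were among the genes called higher (adjusted p under 0.05) and 2 among those called lower. These calls used the contrast on which the genes were chosen and carry no weight. Over all tested genes, 22.1% were called higher, 23.0% lower and 45.0% in either direction, and the CPM values of the groups did not overlap for 54.0% of genes, as they did not for 4 of the 5 members. The median log2 fold change was -0.11 over the 5 and -0.001 over all tested genes. Summed over the 6 genes the level was 921.8 to 1026 CPM in shNC and 363.4 to 380.2 CPM in shKRT15, and IL24 made up most of the sum in shNC.

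Levels of different genes were compared per kilobase of merged exons, in CPM per kilobase. In shNC the order of levels was IL24 at 383.3 ± 24.5, IL20RB at 45.1 ± 2.51, IL10RB at 18.3 ± 0.481, IL10RA at 1.49 ± 0.136, IL22RA1 at 0.734 ± 0.187 and IL20RA at 0.00597 ± 0.0103 CPM per kilobase (SD, n = 3 each). All neighbours in this order were separated in every library. Among 17344 genes with a length, IL24 ranked 69 by its shNC level per kilobase, IL20RB 869 and IL10RB 2340, while IL10RA ranked 9560 and IL22RA1 10707. In shKRT15 the order began with IL20RB at 65.5 ± 1.52 and IL24 at 59.3 ± 1.68, followed by IL10RB at 16.9 ± 0.963, IL22RA1 at 1.45 ± 0.330, IL10RA at 1.09 ± 0.120 and IL20RA at 0.00519 ± 0.00516 CPM per kilobase (SD, n = 3 each). By group means per kilobase, IL24 had thus changed places with IL20RB, and IL10RA with IL22RA1. The second exchange depends on the division by length. In CPM, IL10RA stayed above IL22RA1, at 12.1 against 2.05 in shNC and 8.80 against 4.06 in shKRT15.

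The first exchange was between the ligand and its shared receptor chain. The level of IL24 per kilobase was 8.62, 8.01 and 8.91 times that of IL20RB in the shNC libraries, and 0.897, 0.914 and 0.909 times in the shKRT15 libraries. The ratio was close to constant within each group and crossed 1 between them. In rank, IL24 moved from 69 to 627 and IL20RB from 869 to 572. The second exchange was less clear: IL22RA1 over IL10RA was 0.357, 0.638 and 0.496 in shNC and 1.59, 0.989 and 1.46 in shKRT15. In the second shKRT15 library IL22RA1 stayed just below IL10RA, and the ranges of the 2 genes over the shKRT15 libraries overlap, so their order in shKRT15 does not exceed the spread. The chains that build the IL-24 receptor remained far apart in both groups, with IL20RB at 63.5 ± 12.1 times the level of IL22RA1 per kilobase in shNC and 46.7 ± 10.4 times in shKRT15 (SD, n = 3 each). Their ranges, 49.7 to 72.5 and 35.6 to 56.1, overlap. IL20RB over IL10RB went from 2.47 ± 0.15 to 3.88 ± 0.15 (SD, n = 3 each), without overlap. The exon length chosen matters most for IL10RB, whose shNC level was 39.0 CPM per kilobase of its longest transcript, which left its place in the order unchanged.

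**Figure D2:**
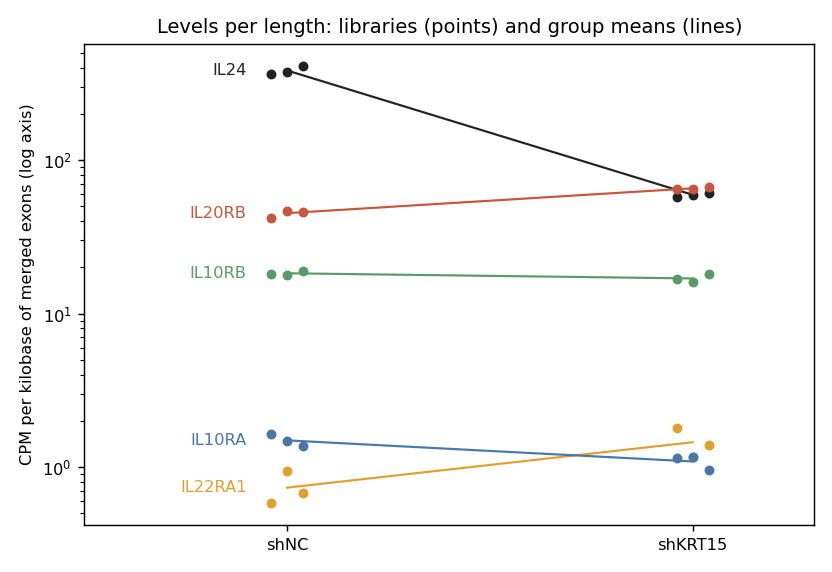
Level of IL24, IL20RB, IL10RB, IL10RA and IL22RA1 in CPM per kilobase of merged exons on a log axis, shNC beside shKRT15, with a point for each library and lines joining the group means (IL20RA, near 0, is not drawn). IL24 stands above IL20RB in all 3 shNC libraries and just below it in all 3 shKRT15 libraries, and IL22RA1 and IL10RA lie close together in shKRT15, where their points coincide in the second library.

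The other ligands of the family were scarce in both groups. Of 9 listed, 5 had a row and only IFNL1, which encodes a lambda interferon that signals through IFNLR1 and IL10RB, had enough reads to test. IFNL1 had 10, 7 and 3 reads in shNC and 27, 36 and 35 in shKRT15, and it rose (log2 fold change 2.06 ± 0.56 SE, adjusted p = 0.00588 by edgeR). IL10, the ligand of IL10RA, had 3 reads over the shNC libraries and 0 in each shKRT15 library. IL19, a ligand of IL20RA/IL20RB, had 12, 3 and 2 reads against 1, 8 and 0, IFNL2 had 0 in each shNC library against 2, 1 and 2, and IFNL3 had 0, 1 and 1 against 1, 5 and 2. IL20, IL22, IL26 and IFNL4 were not analysed here. Among the ligands measured, IL24 was the only one above 1 CPM in any library.

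The remaining receptors of the class II cytokine receptor family, to which the 5 chains belong, were lower with the KRT15 hairpin, unlike IL20RB and IL22RA1. All 6 that were tested fell, against 23.0% of all tested genes, with a median log2 fold change of -0.60. The groups overlapped for none of the 6, and did not overlap for 54.0% of all tested genes. This list too was chosen with earlier results of these data known. IFNLR1, the lambda interferon chain that pairs with IL10RB, fell from 29.6 to 17.0 CPM (log2 fold change -0.80 ± 0.11 SE, adjusted p = 1.61e-05 by edgeR). The interferon gamma chains IFNGR1 (-0.67 ± 0.08 SE) and IFNGR2 (-0.53 ± 0.07 SE) fell, as did the type I interferon chain IFNAR2 (-0.31 ± 0.08 SE). F3, tissue factor, a coagulation receptor with the same fold, had the lowest log2 fold change of the 6 and fell from 19.8 to 5.79 CPM (-1.78 ± 0.13 SE). IFNAR1 fell (-0.26 ± 0.08 SE, adjusted p = 0.0164 by edgeR) and missed the threshold in 6 of 16 alternatives, with adjusted p from 0.00388 to 0.122. IL22RA2, the soluble IL-22-binding protein, had 1 to 12 reads per library and was not tested. For the lambda interferon receptor, then, the ligand IFNL1 was higher, IFNLR1 lower and IL10RB without a clear direction, and for the IL-24 receptor the ligand was lower and IL20RB and IL22RA1 higher.

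Of the kinases and factors that act below these chains, 10 of 11 were tested, 5 rose, 1 fell and 4 were not called, with a median log2 fold change of 0.07. The shares over all tested genes were 22.1% for rises and 23.0% for falls. JAK1, the kinase bound by IL20RA, IL22RA1 and IL10RA, fell from 250.3 to 205.1 CPM (-0.29 ± 0.08 SE, adjusted p = 0.00501 by edgeR). TYK2, the kinase bound by IL10RB, rose (0.25 ± 0.08 SE, adjusted p = 0.0167 by edgeR), a call lost in 4 of 16 alternatives, over which the adjusted p ran from 0.00381 to 0.203. STAT2 (0.43 ± 0.09 SE) and STAT6 (0.43 ± 0.08 SE) rose. STAT3, the main factor below IL-24 and IL-10 receptors, was at 130.3 CPM in shNC and 150.2 CPM in shKRT15 (0.21 ± 0.08 SE), with an adjusted p of 0.0449 by edgeR that ran from 0.0126 to 0.247 over the alternatives and missed the threshold in 5 of 16. JAK2 (-0.07, with no stable sign over the alternatives), STAT4 (-0.51 ± 0.42 SE), STAT5A (-0.12) and STAT5B (-0.12) were not called, and JAK3 had at most 3 reads in a library.

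Of the inhibitors of the pathway, 15 of 16 were tested, 4 fell and 11 were not called, with a median log2 fold change of -0.13. Falls made up 23.0% and rises 22.1% of all tested genes. SOCS3, which is induced by STAT3-activating receptors and blocks some but not all of them, fell from 75.2 to 39.5 CPM (-0.93 ± 0.08 SE, adjusted p = 9.59e-08 by edgeR). SOCS1 (-0.86 ± 0.20 SE) and SOCS2 (-0.64 ± 0.14 SE) fell, and SOCS6 (-0.28 ± 0.09 SE) was called with all libraries but lost in 5 of 16 alternatives, over which the adjusted p ran from 0.000359 to 0.845. These are levels of RNA, and the activity of the receptors was not measured.

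**Figure D3:**
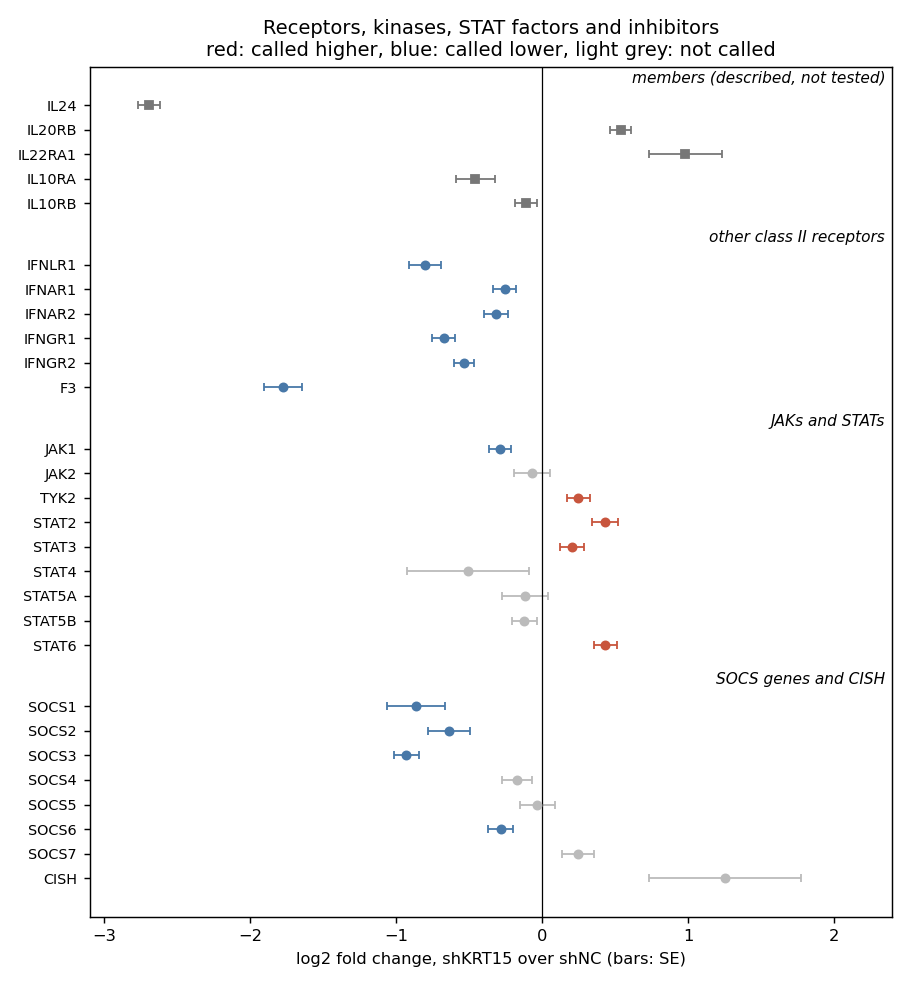
Log2 fold change, shKRT15 over shNC, with SE bars, of the 5 fitted members (grey squares), the other class II receptors, the JAK and STAT genes named in the text, and the SOCS genes with CISH. Red points were called higher, blue points lower, and light grey points were not called. IL24 at -2.69 lies lowest of the members, IL20RB at 0.54 and IL22RA1 at 0.98 lie above 0, and the 6 other class II receptors all lie below 0.

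Genes known to respond to the IL-20 subfamily in epithelia moved in both directions beside IL24. Of 14 tested, 6 rose and 6 fell, with a median log2 fold change of 0.28. For this list and the others of this paragraph, 22.1% of all tested genes rose and 23.0% fell. The chemokine genes CXCL8 (-3.43), CCL20 (-5.48 ± 0.14 SE) and CXCL1 (-1.66 ± 0.07 SE) and the collagenase gene MMP1 (-3.08 ± 0.11 SE) fell. The antimicrobial S100A8 (3.05 ± 0.13 SE) and S100A9 (5.16 ± 0.35 SE) rose, the latter from 16, 1 and 14 reads in shNC. Smaller rises were those of the acute-phase SAA1 (0.43 ± 0.09 SE) and SAA2 (0.55 ± 0.13 SE), the mucin MUC1 (0.72 ± 0.20 SE) and the cornified-layer protein FLG (1.69 ± 0.20 SE). Of 19 tested STAT3 target genes, 6 rose and 8 fell with a median of -0.04, among them ICAM1 (-2.08 ± 0.08 SE), TIMP1 (-1.10 ± 0.07 SE), BIRC5 (1.45 ± 0.08 SE) and NNMT (0.80 ± 0.07 SE). Of 15 genes described as mediators of growth suppression by IL-24, 2 rose and 6 fell with a median of -0.10: the chaperone gene HSPA5 rose (0.80 ± 0.07 SE), and the stress genes PPP1R15A (-0.58 ± 0.08 SE), GADD45A (-0.57 ± 0.09 SE) and EIF2AK3 (-0.63 ± 0.10 SE) fell.

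Genes listed as AP-1 and C/EBP factors were called in 5 of 15 cases, with 1 rise, 4 falls and a median log2 fold change of -0.19. AP-1 and C/EBP motifs were searched in the member windows, and no separate motif was searched for MAFF, which is on this list. All tested genes were called in 45.0% of cases, 22.1% higher and 23.0% lower, shares that serve for both lists of this paragraph. MAFF (-1.36 ± 0.12 SE), JUN (-0.70 ± 0.07 SE), ATF3 (-0.40 ± 0.08 SE) and JUNB (-0.37 ± 0.08 SE) fell. The 1 rise was that of a C/EBP gene, CEBPD (0.31 ± 0.08 SE), from 139.4 CPM in shNC to 173 CPM in shKRT15. CEBPA, CEBPB and CEBPG were not called. IL24 RNA is known to be stabilised through the p38 pathway and AU-rich elements. Of 16 genes of that pathway and of AU-rich element binding proteins, 8 rose and 3 fell with a median of 0.16. Among the 8 were the kinase genes MAP2K6 (1.95 ± 0.16 SE) and MAPKAPK3 (0.76 ± 0.08 SE). The decay factor genes ZFP36L2 (1.197 ± 0.08 SE) and KHSRP (0.62 ± 0.08 SE) also rose. The 3 that fell were ZFP36 (-0.75 ± 0.10 SE), ZFP36L1 (-0.47 ± 0.07 SE) and the kinase gene MAP2K3 (-0.54 ± 0.08 SE). MAP2K6 was scarce, at 2.68 CPM in shNC and 10.4 CPM in shKRT15, beside MAP2K3 at 76.1 and 52.3 CPM. ZFP36L1 was at 286.1 and 205.9 CPM.

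IL24 sits in a cytokine cluster on chromosome 1, and none of its tested neighbours on the list had a log2 fold change as low. Of 11 listed neighbours within 1000 kilobases, 8 were tested, 3 rose, 2 fell and 3 were not called. Among all tested genes, 22.1% rose and 23.0% fell. The gene next to it, FCMR, lies 0.247 kilobases beyond the end of IL24 and had a log2 fold change of -0.60 ± 0.32 (SE), which was not called. On the other side MAPKAPK2, 163 kilobases away, encodes a kinase that acts on AU-rich RNAs, and it rose (0.26 ± 0.07 SE). C1orf116, 114 kilobases away, rose (2.42 ± 0.30 SE), and YOD1, 140 kilobases away, fell (-1.24 ± 0.09 SE). C1orf116 had only 35, 28 and 16 reads in shNC and 166, 132 and 191 in shKRT15. The cluster's cytokine genes IL10 and IL19 and the immunoglobulin transporter gene PIGR had too few reads to test.

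**Figure D4:**
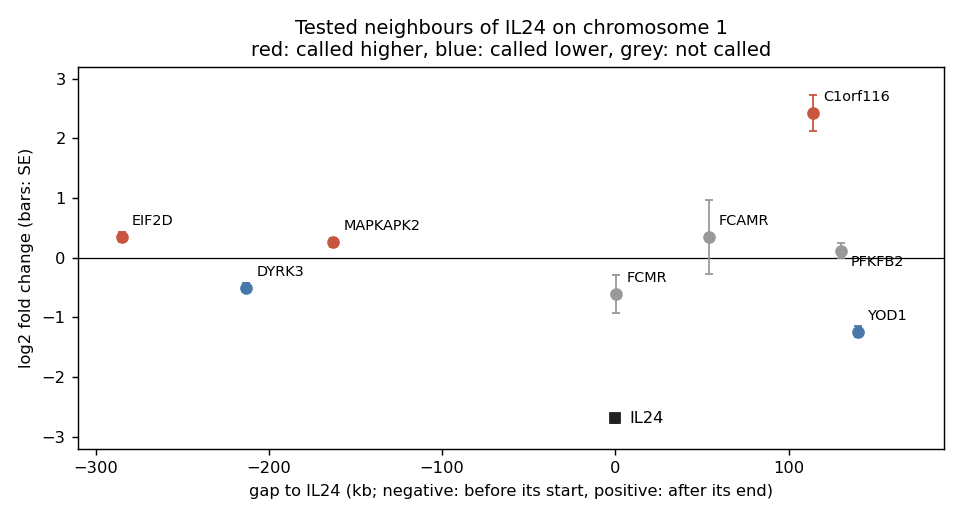
Log2 fold change, shKRT15 over shNC, of IL24 (black square) and of its tested listed neighbours against their distance from IL24 in kilobases, with SE bars and with red for called higher, blue for called lower and grey for not called. IL24 at -2.69 is the lowest point, C1orf116 at 2.42 is the highest, and FCMR, the nearest gene, lies at -0.60.

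IL22RA1, which was higher, lies between IFNLR1, 11.0 kilobases away, which fell, and the muscle protein gene MYOM3, 7.6 kilobases away, which fell (-2.01 ± 0.28 SE). Of the 7 listed neighbours of IL22RA1, 3 fell and 4 were not called. Here and for the members below, the shares over all tested genes were 22.1% rising and 23.0% falling. IL20RB, also higher, had 3 tested neighbours, of which NCK1 and SLC35G2 (-1.32 ± 0.16 SE) fell. IL10RB lies in a row of interferon receptor genes on chromosome 21, where IFNAR2 at 0.683, IFNAR1 at 14.3 and IFNGR2 at 92.7 kilobases from it fell, and the 3 other listed genes were not called. IL20RA had 4 tested neighbours, of which IFNGR1 and TNFAIP3 (-0.97 ± 0.08 SE) fell, and IL10RA had 3, of which the ion pump subunit gene FXYD2 rose (3.09 ± 0.55 SE). FXYD2 had only 4, 12 and 3 reads in shNC and 53, 48 and 89 in shKRT15.

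The genes whose levels ran most like each member were found by the root mean square distance between log2 CPM values centred on each gene's mean, over the 6 libraries. For IL24 the nearest was IL6, an inflammatory cytokine gene, at a distance of 0.0352, with 2540 CPM in shNC and 407 CPM in shKRT15. It was followed by LCP1 at 0.0960, GPR37L1 at 0.101, TRAF1 at 0.105 and TNFAIP6 at 0.114. The distances beyond IL6 were larger, and the 5 genes nearest to IL24 had log2 fold changes of -2.64 to -2.79. For IL20RB the nearest were ZDHHC12 at 0.0218, ITM2C at 0.0226, MAEA at 0.0302, POLD2 at 0.0326 and CALM3 at 0.0332. For IL10RA they were LRIF1 at 0.0308, RPS6KA3 at 0.0352, HINT3 at 0.0411, GCFC2 at 0.0420 and TTC39B at 0.0424. For IL10RB they were CERS2 at 0.0195, CRYL1 at 0.0209, MAP2K7 at 0.0210 and SLC39A1 at 0.0218. IL22RA1 and IL20RA were below the level of 10 CPM set for this comparison. The points share libraries and depth, and the distances describe these 6 libraries only. The difference between the groups enters each distance, so the nearest genes have log2 fold changes close to that of the member by construction. Shared regulation was not tested.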

How the data were processed

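The authors deposited a table of raw read counts per gene, whole numbers with no normalization, for 6 RNA-seq libraries (per the labels' protocols, mRNA was purified from TRIzol extracts). The genome build was GRCh38, per the submitters' processing notes, and for the aligner, counting tool, annotation and strand, nothing is given in the sources used here. Titles gave each library's group. Library totals were 36286059 to 41343780 counts.

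Counts were tested with edgeR 4.0.16 (quasi-likelihood, robust) in R 4.3.3, with TMM scaling, group as the only term and filterByExpr (minimum count 10, minimum total 15), which left 14356 genes. Benjamini-Hochberg adjustment ran over these genes, with calls at an adjusted p under 0.05. Each log2 fold change is shKRT15 relative to shNC with its SE, and rose and fell are used for called genes only. The script was tested on simulated counts. The 6 genes and all gene lists were chosen with earlier results of these data known. Beyond the 6 genes and KRT15, the text names from each list the called genes with the 4 smallest p-values, every listed ligand, class II receptor, JAK and STAT, and the 5 genes most like IL24 and each other member with at least 10 CPM. Some genes that this rule takes are not reported here. The other genes named were chosen after their values were seen. They come from the neighbours, the cell type markers, the epithelial response list and, for ZFP36, the list of the p38 pathway and AU-rich element binding proteins. Lengths, positions and GC content came from GENCODE release 29 and start sites from RefSeq. The settings compared were DESeq2 1.42.0, limma-voom (limma 3.58.1), size factors, upper-quartile or total-count scaling, other filters, protein-coding genes only, a replicate block, removal of GC and length trends, and leaving out each library.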

Additional observations from a re-analysis of the deposited data

How the results depend on the processing

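The counts of called genes stayed within 1.5 times of 3169 higher and 3295 lower under every setting compared. The log2 fold changes of IL24, IL20RB, IL22RA1 and IL10RA kept their direction under all of them. After removal of trends with GC content and length, that of IL24 moved to -2.595, and that of IL10RB turned to 0.1 from -0.113; it was -0.054 with total-count scaling. The median log2 fold change of all tested genes was 0.059 with total-count scaling, against -0.001 with TMM. With the longest transcript in place of merged exons, the ratio of IL20RB to IL24 in shKRT15 went from 1.104 to 1.225, and that of IL22RA1 to IL10RA from 1.346 to 1.114. Among the values of other genes, 963 kept direction and side of the threshold, 2 changed direction, 23 lost the call and 1 gained it (STAT5B, -0.229, adjusted p = 0.0241 with the trend removed, range over its alternatives 0.0241 to 0.64). The 2 were of JAK2, which was not called under any setting: from -0.069 its log2 fold change went to 0.148 with the trend removed and to 0.036 without shKRT15 replicate 3, the highest value with 1 library left out (the lowest was -0.195). The causes were not tested.

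The labels number the replicates 1 to 3 in both groups. Same-numbered libraries deviated from their group means with correlations of 0.0188, -0.00742 and 0.0462, so the numbers were not taken as pairs. With a replicate block, 3305 genes were called higher and 3428 lower, and IL24 stood at -2.69. Depth limits IL20RA (0 to 3 reads per library), IL22RA1 and the ligands other than IL24. An alignment of the receptor proteins was planned and not run.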
